A study of Mus musculus with 2 samples.

Results

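Ebf1 binding was examined at the loci of 5 adipokine genes, Adipoq, Lep, Retn, Rbp4 and Cfd, in mature 3T3-L1 adipocytes. A window of 103 to 114 kb on the mm9 genome was set for each gene, and every Ebf1 peak whose centre fell in a window was kept. This gave 34 of the 34534 peaks in the deposited list, from 542 kb of sequence. 3T3-L1 is a mouse fibroblast line that becomes fat-storing when treated with the differentiation mixture MDI. The cells were fixed with 1% formaldehyde at 10 days after that treatment, and DNA pulled down by an anti-Ebf1 antibody was sequenced (ChIP-seq). Besides this 1 Ebf1 library the labels list 1 library of whole cell extract, for which no antibody was used and whose values were not analysed here. No value below therefore has a replicate error, and no test between conditions was possible. RNA was not measured, so the adipocyte identity of the cells could not be checked against marker genes. The windows were read as the membership rule gives them, and the place of each gene's start, exons and introns inside its window was not used here because no mm9 annotation was at hand.

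Adipokines are proteins that fat cells secrete and that act on other tissues. Adiponectin (Adipoq) raises insulin sensitivity, leptin (Lep) signals fat stores to the brain, and resistin (Retn) impairs insulin action in mice. Retinol-binding protein (Rbp4) carries vitamin A in blood and is also made by the liver, and adipsin (Cfd) is the serine protease that starts the alternative pathway of complement. Ebf1 is a transcription factor needed to make B cells and known to promote fat cell differentiation, and it binds DNA as a dimer at a palindromic site.

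Every window held at least 3 Ebf1 peaks. Adipoq had 11, Lep and Cfd had 8 each, Rbp4 had 4 and Retn had 3. The windows together held 62.7 peaks per Mb (exact Poisson 95% interval 43.4 to 87.7, for counting error only). The 5 chromosomes at their own densities would give 9.44 peaks over the same length, so the windows held 3.60 times that number. Genes and their surroundings were chosen here, whereas the chromosome densities include long stretches with no gene, so this ratio does not compare adipokine genes with other genes. Of all 25702 tiles of 100 kb between the first and last peak of chromosomes 1 to 19 and X, 49.9% held any peak, and 10.4% held a peak in the top 10% by score.

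The score of each peak, a whole number from 3 to 597 whose meaning the sources do not state, was used to rank peaks within the list. Member peaks had a median score of 17 (quartiles 11.3 and 22.8), against 13 (quartiles 8 and 26) in the whole list. Scores of 55 or more, the threshold for the top 10% of the list, were reached by 4 of the 34 member peaks, or 11.8% (exact Clopper-Pearson 95% interval 3.30 to 27.5), against 10.2% of all peaks. The share of strong peaks at these loci was thus close to that of the list. The list's median score was reached by 23 member peaks, or 67.6% (49.5 to 82.6), against 50.6% of all peaks. Both intervals are for counting error only and treat the 34 peaks as independent, although 8 of them lie within 10.0 kb at Adipoq. Of the 4 strong peaks, 2 lay at Adipoq, 1 at Lep and 1 at Retn, and none at Rbp4 or Cfd. They scored 252, 123, 122 and 65. The next member peak, at Lep, scored 42, so no member score fell between 42 and 65.

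**Figure D1:**
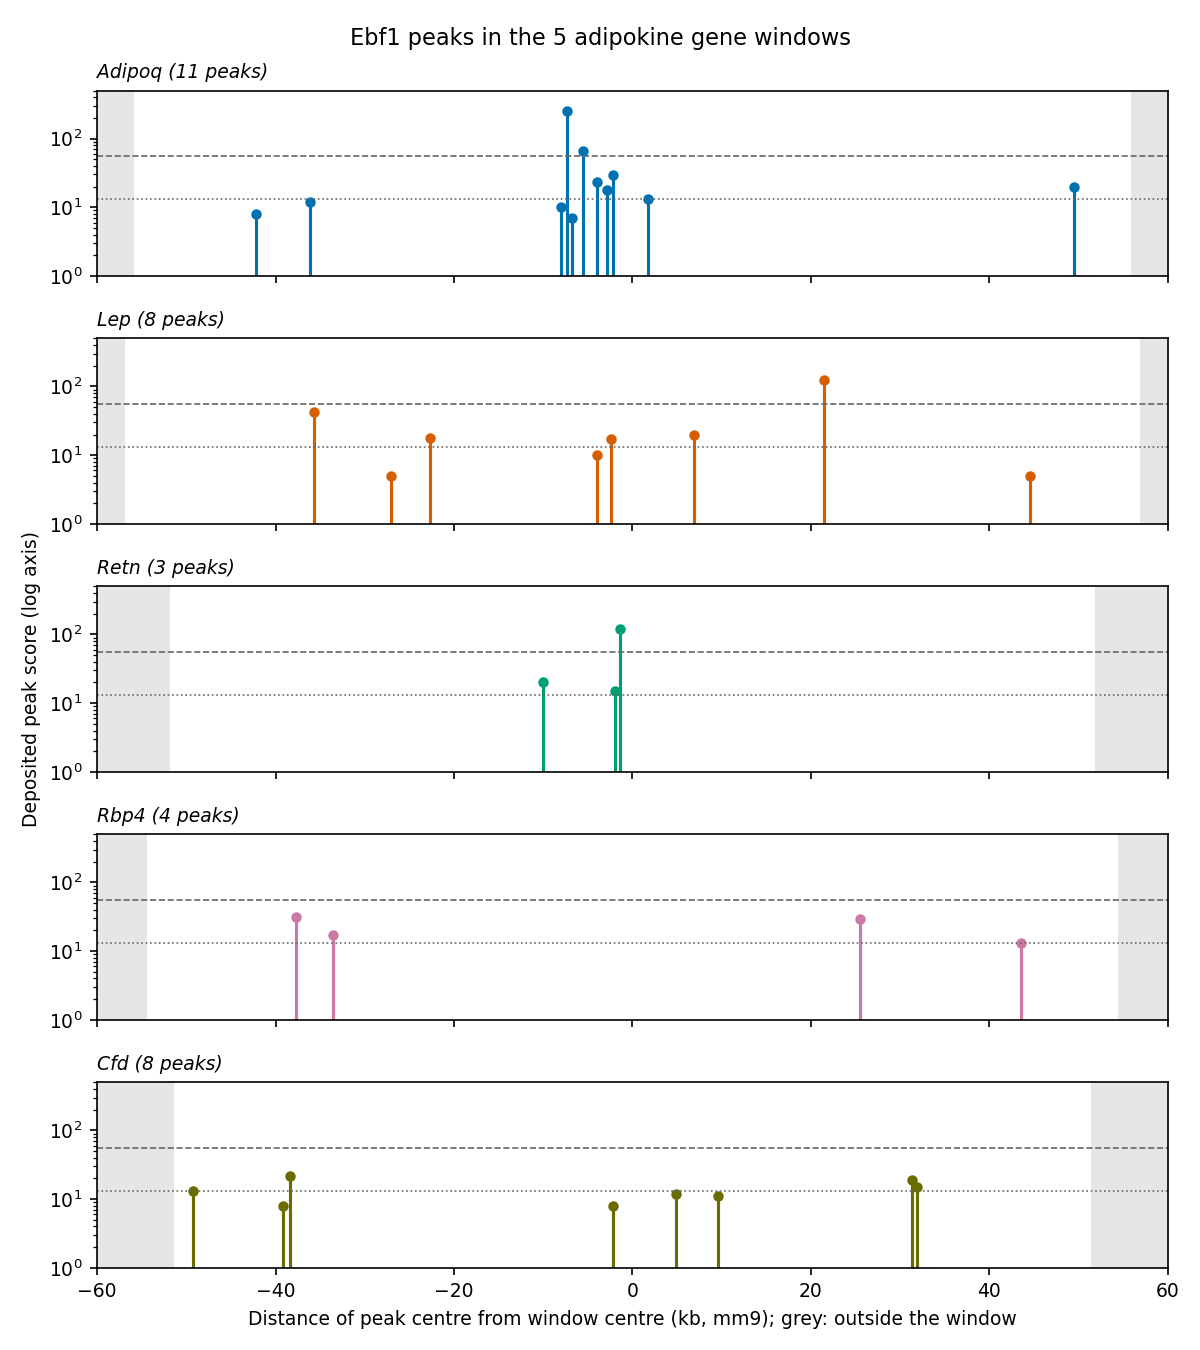
Ebf1 peaks in the 5 windows, each drawn at the distance of its centre from the window centre (kb, x axis) with its deposited score (log y axis). Points are single peaks, the dashed line is the top 10% threshold of 55, the dotted line is the list median of 13, and grey marks sequence outside a window. Adipoq peaks crowd near the centre, the strongest Lep peak lies 21.5 kb past it, and no Rbp4 peak lies within 25 kb of it.

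Adipoq held the highest-scoring Ebf1 peak and the most peaks per 100 kb of the 5 loci. Its window (chr16:23096001-23208000) held 11 peaks, 9.82 per 100 kb, or 6.0 times the density of chromosome 16 (98.2 against 16.4 peaks per Mb). Only 0.887% of 100 kb tiles held as many. In RefSeq's GRCm38.p6 table Rfc4, a subunit of the clamp loader in DNA replication, precedes Adipoq, and St6gal1, a sialyltransferase gene, is the next protein-coding gene after it.

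The strongest Adipoq peak covered chr16:23144226-23145025 and scored 252. It was 800 bp wide, stood at rank 48 of the whole list and rank 4 on chromosome 16, and had a second value of 6. The second value is another deposited whole number per peak, from 0 to 15, whose meaning is likewise not stated. A peak scoring as high was present in 0.183% of 100 kb tiles. Among the 103 peaks of the same width in the list, whose median score was 117, it stood at percentile 94.7. The other strong Adipoq peak, at chr16:23146226-23146750, scored 65 over 525 bp with a second value of 2, and the median score at that width was 45. Its centre lay 1.86 kb past the centre of the strongest peak.

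Both belonged to a run of 8 peaks packed into 10.0 kb, from 23143876 to 23153875. In map order the 8 scored 10, 252, 7, 65, 23, 18, 29 and 13. The gaps between them measured 125 bp to 3.43 kb. Their summed score of 417 was 91.2% of that of the whole window, although the middle 20 kb in which they lie makes up 17.9% of its length. The weak peaks at 10 and 7 flanked the strongest, at gaps of 150 and 125 bp. Among 34016 runs of 8 consecutive peaks in the list, 71 or 0.209% spanned no more sequence than this run, and 0.0350% of 20 kb tiles held 8 or more peaks. The number of peaks and the span were taken from this run after it was seen, so these shares describe it and test nothing. The remaining 3 Adipoq peaks, at 36.2 and 42.3 kb before the window centre and 49.5 kb past it, scored 12, 8 and 20. A stretch of 47.4 kb without a peak followed the run. Outside the window, 32.9 kb past its end, lay a peak with a score of 107.

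**Figure D2:**
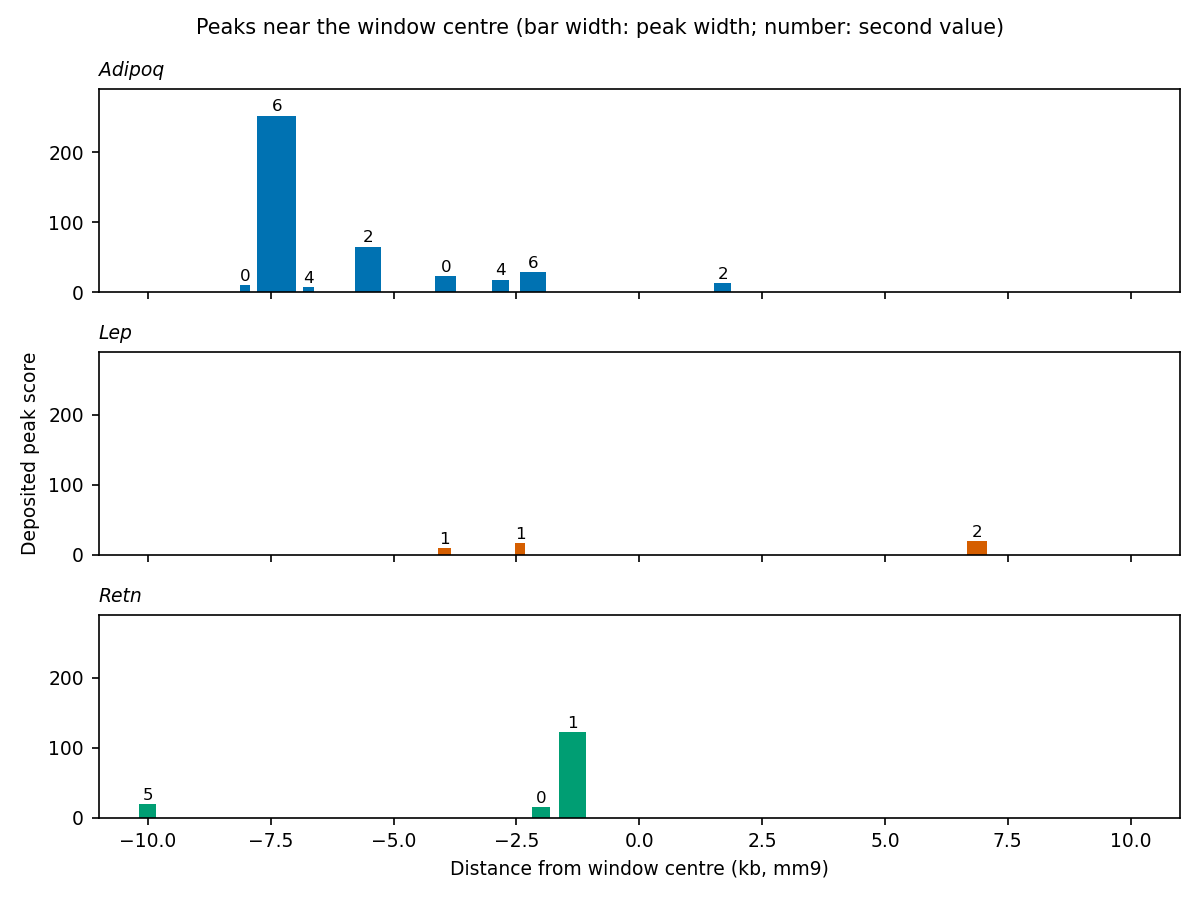
Peaks within 11 kb of the window centre at Adipoq, Lep and Retn, drawn to scale in width (x axis, kb from the window centre) with their deposited scores (y axis) and their second values printed above the bars. Adipoq shows 8 peaks with 1 dominant at 252, Lep shows 3 peaks of 10 to 20, and Retn shows 1 dominant peak at 122.

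At Lep the peaks were spread out, and the strongest by score stood alone. The window (chr6:28960001-29074000) held 8 peaks, 7.02 per 100 kb, or 3.78 times the density of chromosome 6 (70.2 against 18.5 peaks per Mb). As many were held by 2.23% of tiles. Tiles hold whole numbers of peaks, so this is the share with 8 or more, the same as for Cfd at 7.77 per 100 kb. A further 268 of the 25702 tiles held 7 peaks, just under the value at Lep. Lnclep, a long non-coding RNA gene, comes just before Lep in the GRCm38.p6 table, where the nearest protein-coding genes are Lrrc4 and Rbm28. The strongest peak, at chr6:29038076-29038875, scored 123 over 800 bp with a second value of 7, at rank 727 of the list, and 2.68% of tiles held a peak as high. It lay 21.5 kb past the window centre, and its nearest neighbour was 14.6 kb away. For its width the score was ordinary, at percentile 52.9 of the same 103 peaks of 800 bp, where the Adipoq peak stood at 94.7. It made up 51.2% of the summed score of the window.

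The next Lep peak, at chr6:28981051-28981650, scored 42 with a second value of 7. Its score was low for a width of 600 bp, where the median was 71. A group of 3 peaks near the middle, 3.96 and 2.43 kb before the centre and 6.88 kb past it, scored 10, 17 and 20. The peak with 17, at chr6:29014476-29014675, had the minimum width of 200 bp, and only a few of the 7001 peaks of that width scored higher (percentile 99.6, median 7). The other 3 Lep peaks scored 5, 18 and 5. Just past the end of the window, by 0.788 kb and 13.7 kb, lay peaks with scores of 26 and 72, which the rule leaves out.

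Retn had the fewest peaks, and these stood together. Its window (chr8:3605001-3709000) held 3 peaks, 2.88 per 100 kb, or 1.49 times the density of chromosome 8 (28.8 against 19.3 peaks per Mb). The Poisson interval of 5.95 to 84.3 peaks per Mb, for counting error only, includes the chromosome's value. As many peaks were held by 18.4% of tiles, and by that share the number of peaks at Retn did not stand out. The strongest covered chr8:3655376-3655925, 1.35 kb before the window centre, and scored 122 with a second value of 1. A peak as high was present in 2.74% of tiles. At 550 bp it was narrower than the strongest peak at Lep, which had nearly the same score. Among the 791 peaks of 550 bp, with a median score of 54, it stood at percentile 98.5, the highest such percentile of the 4 strong member peaks. It made up 77.7% of the summed score at the locus. A peak with a score of 15 ended 200 bp before it, and another with 20 lay 10.0 kb before the centre. After the strongest peak no further one was listed for 355 kb, a gap matched or exceeded by 4.36% of gaps in the list and 2.58% of those on chromosome 8. In the GRCm38.p6 table Retn lies between Stxbp2, which acts in granule secretion, and Mcemp1.

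Cfd showed many weak peaks and no strong one. The window (chr10:79303001-79406000) held 8 peaks, 7.77 per 100 kb. That was 6.89 times the density of chromosome 10 (77.7 against 11.3 peaks per Mb), the highest such ratio of the 5 loci, and 2.23% of tiles held as many. The scores ran from 8 to 22, with a median of 12.5 against 13 for chromosome 10. A peak of at least 22 was found in 23.5% of tiles. The highest, at chr10:79315976-79316350, lay 38.3 kb before the window centre and had a second value of 3. Nearest to the centre, at 2.19 kb before it and at 4.89 and 9.61 kb past it, peaks scored 8, 12 and 11. The others scored 13 and 8 before the centre and 19 and 15 past it, the last pair separated by 125 bp. The nearest strong peak, with a score of 80, lay 45.5 kb before the start of the window. In the GRCm38.p6 table Cfd lies between Elane, which encodes neutrophil elastase, and Med16, a subunit of the Mediator complex, if a pseudogene next to it is passed over.

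Rbp4 was the locus with no peak near the middle of its window. The window (chr19:38141001-38250000) held 4 peaks, 3.67 per 100 kb, or 1.72 times the density of chromosome 19 (36.7 against 21.3 peaks per Mb). The Poisson interval of 10.0 to 94.0 peaks per Mb, for counting error only, includes the chromosome's value, and 11.8% of tiles held as many. The peaks scored 31, 17, 29 and 13 in map order. The strongest, at chr19:38157501-38158050, lay 37.7 kb before the centre, and the one at chr19:38220776-38221300, with 29, was the nearest to it at 25.5 kb past it. The 2 peaks on either side of the middle were separated by 58.7 kb, the longest stretch without a peak inside any of the 5 windows. For their widths of 550 and 525 bp, scores of 31 and 29 were low, at percentiles 10.2 and 12.2. The narrow peak of 225 bp, with 13, was high for its width at percentile 95.5, and the one of 375 bp, with 17, stood at 38.6. Within 50 kb on either side of the window lay 6 more peaks, with scores of 6 to 34. In the GRCm38.p6 table Ffar4, a fatty acid receptor gene, precedes Rbp4, and Pde6c, a phosphodiesterase gene of cone cells, is the next protein-coding gene after it.

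**Figure D3:**
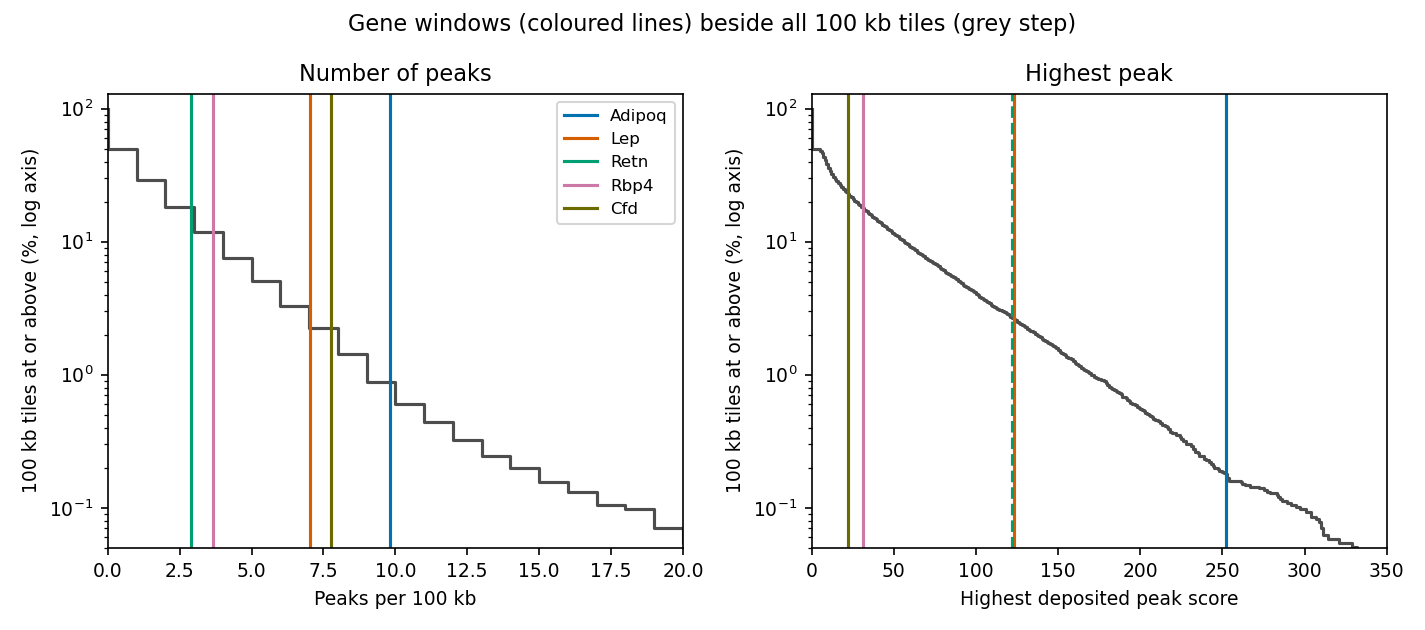
Peaks per 100 kb (left) and highest peak score (right) of the 5 gene windows, drawn as coloured vertical lines over the share of all 25702 tiles of 100 kb at or above each value (grey step, log y axis in percent). Adipoq lies at 0.887% of tiles by number and 0.183% by highest score, whereas Cfd lies at 2.23% by number and 23.5% by highest score.

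The order of the 5 loci depended on what was counted. By number of peaks per 100 kb the order was Adipoq, Cfd, Lep, Rbp4 and Retn, with 9.82, 7.77, 7.02, 3.67 and 2.88. By highest score it was Adipoq, Lep, Retn, Rbp4 and Cfd, with 252, 123, 122, 31 and 22, so Cfd moved to the last place and Retn to the third. By summed score per 100 kb the values were 408 at Adipoq, 211 at Lep, 151 at Retn, 105 at Cfd and 82.6 at Rbp4, and 0.580%, 3.19%, 5.84%, 9.69% and 12.5% of tiles reached them. Adipoq was first in each of these orders. By density relative to the gene's own chromosome, however, Cfd came first, with a ratio of 6.89 against 6.0 at Adipoq. With 1 library the spread of these values between cultures is unknown, so it cannot be said which neighbours in the order differ. Scores of 123 at Lep and 122 at Retn are nearly equal in any case.

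**Figure D4:**
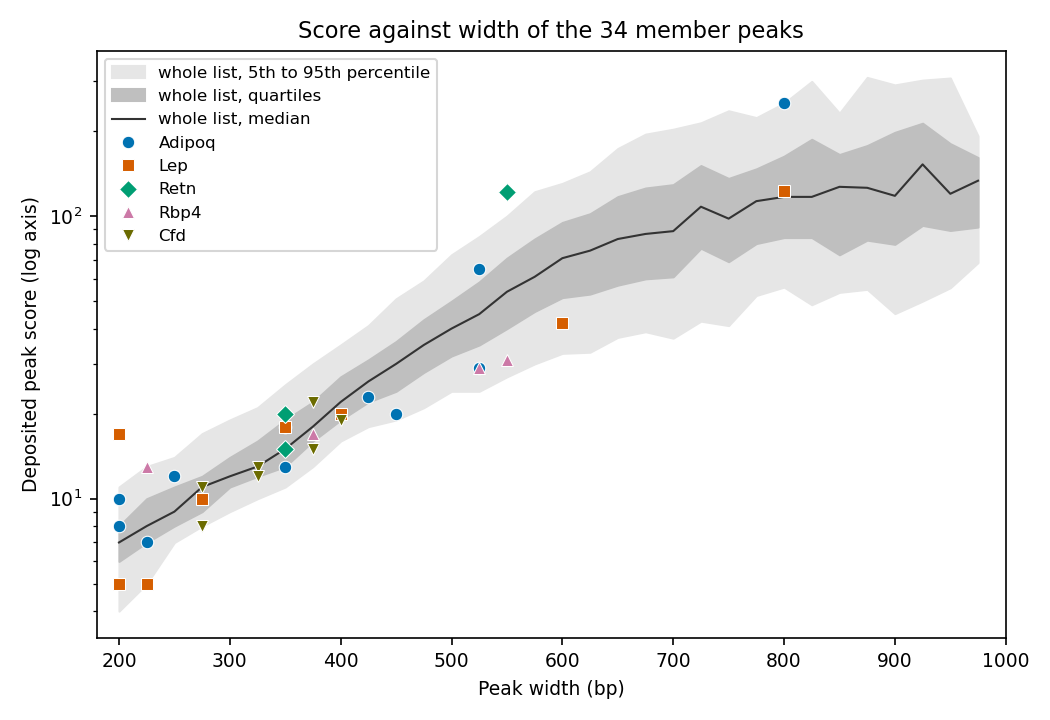
Deposited score (log y axis) against peak width (bp, x axis) of the 34 member peaks, coloured by gene, over the median, the quartiles and the 5th to 95th percentile range of the whole list at each width. The Retn peak of 122, the narrow Lep peak of 17 and, barely, the Adipoq peak of 252 lie above the range, and the peaks of Rbp4 with 29 and 31 lie low in it.

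In the whole list the median score rose with peak width up to 725 bp, and past that it rose and fell. Each member was therefore also read against peaks of its own width. Of the 34 member peaks, 13 scored above the median for their width, 3 equalled it and 18 scored below it. The same split was not counted over the whole list, where whole-number scores tie often and need not divide evenly. These counts therefore do not show that members were low or high for their width. The median width was 350 bp, against 300 bp in the whole list. The higher median score of the members went along with wider peaks, and whether width accounts for it was not tested. Single members stood on both sides of their width's median. The Retn peak of 122 was at percentile 98.5 and the narrow Lep peak of 17 at 99.6. The Rbp4 peaks of 31 and 29 were at 10.2 and 12.2.

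Member peaks lay closer to other peaks than peaks of the whole list did, in windows with 3.60 times the peak density of their chromosomes. Where peaks are denser their neighbours are nearer, so these distances partly restate that density. Whether they go beyond it was not tested. The nearest other centre was at a median of 4.16 kb, against 9.63 kb for all peaks on chromosomes 1 to 19 and X. A neighbour within 1 kb was found for 11 of the 34, or 32.4%, against 11.9% of the list. Of these 11, 5 were at Adipoq, 4 at Cfd and 2 at Retn, with none at Lep or Rbp4. The cutoff of 1 kb was added after values were seen. Peaks within 10 kb of a window centre numbered 17 of the 34, on 18.5% of the length. They comprised 8 at Adipoq and 3 each at Lep, Retn and Cfd, with none at Rbp4. At least 3 peaks were found in 1.73% of 20 kb tiles.

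The second value was 6 or more at 4 of the 34 member peaks, or 11.8%, against 2.62% of all peaks. The cutoff of 6 was not planned and lies at the top of the members' own values, so these shares are a description only. These were the Adipoq peaks with scores of 252 and 29 and the Lep peaks with scores of 123 and 42. Among peaks of the same width they stood at percentiles 74.8, 95.1, 85.0 and 95.2 of the second value, so those with the higher scores were less set apart than the weaker ones. The strong Retn peak had a second value of 1. The part of whatever this column measures in the scores was not tested.

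Since the sequence of the mm9 peaks was not at hand, the upstream sequence of each gene was read instead from RefSeq (GRCm38.p6, the 250 bases before each annotated start). All 5 genes matched by symbol, Rbp4 with 2 starts. The sequences of the 3 genes whose windows held a strong peak are shown, because they let the letters of the Ebf palindrome be looked for at the gene itself. All 3 lie on the plus strand, Adipoq at chr16:23146286-23146535, Lep at chr6:29059971-29060220 and Retn at chr8:3655520-3655769. These positions are in GRCm38.p6 and the peaks are in mm9, so the 2 sets of coordinates cannot be set against each other. Whether the strong peaks at Adipoq and Retn cover the starts of these genes was not analysed here. Capitals mark the closest match to the Ebf palindrome, which is TCCC and GGGA with 2 free bases between them, and in Lep also a C/EBP motif, TTGCNNAA, nearer to the start.
Adipoq: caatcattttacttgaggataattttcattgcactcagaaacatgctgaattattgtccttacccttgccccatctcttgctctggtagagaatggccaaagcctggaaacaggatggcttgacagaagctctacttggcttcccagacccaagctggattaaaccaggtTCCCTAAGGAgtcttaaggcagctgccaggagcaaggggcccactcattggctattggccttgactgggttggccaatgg
Lep: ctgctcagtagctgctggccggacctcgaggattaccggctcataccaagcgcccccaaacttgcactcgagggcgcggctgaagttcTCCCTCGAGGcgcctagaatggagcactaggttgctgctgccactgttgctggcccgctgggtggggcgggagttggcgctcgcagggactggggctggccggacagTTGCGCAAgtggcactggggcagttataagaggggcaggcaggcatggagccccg
Retn: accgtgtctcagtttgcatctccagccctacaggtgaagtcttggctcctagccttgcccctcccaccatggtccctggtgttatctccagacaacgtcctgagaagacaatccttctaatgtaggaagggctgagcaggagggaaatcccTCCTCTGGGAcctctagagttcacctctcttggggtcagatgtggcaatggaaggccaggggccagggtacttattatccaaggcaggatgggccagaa

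None of the 6 upstream sequences of the 5 genes held the full Ebf palindrome, which reads the same on both strands, and 0.779% of all 32851 upstream sequences in the table did. Its shorter core CCCNNGGG, which lies inside the palindrome, was also missing from all 6 and was found in 11.8% of the table. At Adipoq the closest stretch, TCCCTAAGGA, lay 80 to 71 bases before the start and matched 7 of the 8 fixed letters. At Retn the closest, TCCTCTGGGA, also matched 7 of 8 and lay 99 to 90 bases before the start. A match of at least 7 letters was present in 13.9% of the table, and 1 of the Rbp4 sequences had one as well. The best stretches at Lep and Cfd matched 6 letters, which 71.2% of the table reached. Lep held the C/EBP motif TTGCGCAA at 55 to 48 bases before the start, and 1 Rbp4 sequence held that motif too; searched on both strands it was found in 9.56% of the table. C/EBP factors are regulators of fat cell differentiation. These are matches of letters in short windows and do not show where Ebf1 binds.

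The same search was made in other adipokine genes and in adipokine receptor and carrier genes. Of 22 other adipokines, 15 were matched to 15 upstream sequences, and none held the palindrome. The core was found in 3 of them, Serpina12 (vaspin), Sfrp5, a secreted Wnt antagonist, and Tnf, the C/EBP motif in 3 and a match of at least 7 letters in 3, against 11.8%, 9.56% and 13.9% of the table. Of 6 receptor and carrier genes, 5 were matched to 10 sequences, again with no palindrome. Of these 10 sequences 3 held the core, 0 the C/EBP motif and 5 a match of at least 7 letters. The core matches lay at Adipor1 and Adipor2, the adiponectin receptors, and Stra6, the receptor for retinol-binding protein. Each gene had the core at a single start, and the other starts of Adipor1 and Stra6 lacked it. The 5 matches of at least 7 letters came from the same 3 genes, several of them from starts of Stra6. The 6 genes with the core in these lists are named after their matches were seen. Peaks near these genes were not analysed here, because the genes were not placed on mm9.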

How the data were processed

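The peak list of the 1 Ebf1 library was used as deposited by the authors. The submitters' processing notes name the build mm9 and SAMtools, while the aligner, the peak caller and its threshold, and any use of the whole cell extract, are not given in the sources. The list has no header. Both whole-number columns used here, called the score and the second value, are deposited scores of unstated meaning and were not used as read counts. Read depth is unknown. Per the labels' protocols, fragments of 275 to 700 bp went through 18 PCR cycles. Starts lay 1 base past multiples of 25 and ends on them throughout, which fits 1-based positions that include both ends.

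A peak belonged to a window when its centre fell in it. Densities were taken over each chromosome from its first peak to its last. Tiles of 100 kb and 20 kb were fixed from position 1, and were kept where they lay wholly in that span. Percentiles count ties as mid-ranks. RefSeq tables of GRCm38.p6 gave neighbouring genes and upstream sequences and placed no peak. The windows, genes, lists and quantities were chosen with earlier results of these data known. The naming rule took all 5 genes, their nearest neighbours in the table, the top peak of each window, every peak in the top 10% by score, and other genes only where their upstream sequence held the Ebf palindrome; since none did, the 6 with its core were named outside the rule, after their matches were seen. The middle 20 kb of the windows, runs of 8 peaks, the gap at Retn, neighbours within 1 kb and 7-letter matches were added after values were seen. The cutoff of 6 for the second value was not planned either. No test was run, because there is 1 library. Window counting, tiling and motif search were tested on simulated data. Scripts ran under Python 3.11.15 with pandas 2.3.3, numpy 2.4.6, matplotlib 3.10.9 and scipy 1.17.1.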

Additional observations from a re-analysis of the deposited data

How the results depend on the processing

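Of 73 alternative values, 48 counted as unmoved and 25 as moved. For counts and scores unmoved means within 1.5 times, and for the density ratio within the Poisson interval of the main count. At or above the median score the counts were 7 at Adipoq, 5 at Lep and 4 at Cfd. The density of the windows was then 5.04 times that of their chromosomes, against 3.60 for all peaks. This ratio was 3.97 for the top 10% by score, 4.12 in windows narrowed by 25 kb and 2.65 in windows widened by 50 kb. In the top 10% by score, by construction, 4 peaks were left in all, 2 at Adipoq, 1 at Lep, 1 at Retn, 0 at Rbp4 and 0 at Cfd, with a median score of 122.5. Windows narrowed by 25 kb at each end held 21 peaks in all, 1 of them at Rbp4 and 3 at Cfd, and the highest score at Cfd was then 12. Windows widened by 50 kb at each end held 10 peaks at Rbp4, and the highest score at Cfd was then 80. The count at Rbp4 and the lack of a strong peak at Cfd thus follow the window's limits. Counting any overlap, or joining peaks at most 500 bp apart, moved no value by more than 1.5 times. In tiles of 50 and 200 kb, 2.09% and 0.436% held as many peaks per length as Adipoq, 3.98% and 1.31% as many as Lep, and 3.98% and 1.05% as many as Cfd. The Ebf palindrome was in 0.779% of upstream sequences, its core in 11.8%, and at least 7 of its 8 fixed letters in 13.9%, a setting chosen after seeing the data. No paired analysis was possible because only 1 library was used, and for the same reason none was left out. Without a known depth, how many of the weak peaks are chance calls is unknown.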
